A study of Mus musculus with 21 samples.

Results

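The genes described here are 9 that break down cysteine in mouse liver, dispose of its sulfur or move taurine, its end product: Cdo1, Csad, Ado, Slc6a6, Mpst, Sqor, Ethe1, Tst and Suox. They were chosen by name, as the rows of a gene count table whose Ensembl identifier carries one of these symbols in the GENCODE M21 annotation of GRCm38. All 9 were found among the 46078 gene rows, and all 9 were among the 14370 genes that passed a filter on low counts. Polyadenylated liver RNA was sequenced in 21 libraries, 1 per animal as the sample titles number them. Group names below join a genotype and a diet. KO animals lacked cystathionine γ-lyase, whose gene is called Cse in the study and Cth in the annotation, on a 129/C57BL/6 background, and the comparison animals are labelled WT, although the study's methods describe them as heterozygous (Cse+/-). CTR is the control diet of defined amino acids, and noCys and noTrp are the same diet with all cysteine or all tryptophan removed and the other amino acids raised in proportion. There were 3 libraries of WT CTR, 4 of KO CTR, 4 of WT noCys, 3 of KO noCys (numbered 1, 3 and 4), 2 of WT noTrp and 5 of KO noTrp. Per the study, all animals were calorie restricted, male and at least 9 weeks old, and livers were taken on the second day of the test diet.

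Cysteine leaves the liver cell's amino acid pool by oxidative and by sulfide-forming routes. In the first, cysteine dioxygenase (Cdo1) oxidises it to cysteine sulfinate, cysteine sulfinate decarboxylase (Csad) turns that into hypotaurine, and hypotaurine is oxidised to taurine. Cysteamine dioxygenase (Ado) reaches hypotaurine from cysteamine, a product of coenzyme A breakdown, and Slc6a6 carries taurine across the cell membrane. In the second, mercaptopyruvate sulfurtransferase (Mpst) takes sulfur from mercaptopyruvate, the transamination product of cysteine. In mitochondria, sulfide is then oxidised by sulfide:quinone oxidoreductase (Sqor), the persulfide dioxygenase Ethe1, the sulfurtransferase rhodanese (Tst) and sulfite oxidase (Suox), which makes sulfate. Hepatic cysteine dioxygenase is known to follow the cysteine supply closely, largely through the stability of the protein, which RNA sequencing does not see.

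Total counts ran from 8889951 to 27230852 per library, and the mean correlation of a library with the others of its group was 0.964 or more. Cth, the targeted gene, was at 107.8 CPM or more in every WT library and at 14.99 or less in every KO library. CPM is a gene's count as a share of its library's total, scaled to a common size and normalised by TMM, and a gene was called where the adjusted p of edgeR's quasi-likelihood test over all 14370 genes was under 0.05. Marker sums here and below are instead shares of library totals without TMM, while the calls of markers beside them use TMM. TMM factors were 0.998 to 1.141 in KO noCys and 0.909 to 0.962 in WT noCys. Ranges that lie apart in these sums, the pericentral ones included, thus need not be apart after TMM. Hepatocyte markers (8 genes, Alb among them) were present in every library, with summed levels of 80970 to 101800 CPM in WT CTR, 81980 to 93440 in KO CTR, 102800 to 109000 in WT noCys, 66280 to 82990 in KO noCys, 81280 to 99360 in WT noTrp and 71900 to 95760 in KO noTrp. KO noCys was thus below WT noCys in this sum without overlap, and of the 8 markers 4 were called lower and 1 higher. Between the same groups, cholangiocyte markers summed to 17.2 to 20.3 CPM against 32.1 to 54.1, with 2 of 6 called lower. Kupffer cell and leukocyte markers summed to 106.5 to 147 CPM against 109.6 to 193 (1 of 8 lower), endothelial markers to 104 to 109 against 96 to 151 (2 of 6 lower), stellate markers to 227 to 242 against 204 to 312 (1 of 6 lower) and erythroid markers to 130 to 164 against 162 to 319.6 (2 of 5 lower). Pericentral hepatocyte markers summed to 14720 to 15150 CPM against 10370 to 13010 (1 of 6 higher) and periportal ones to 8408 to 10350 against 10620 to 11710 (2 of 6 lower). Not all markers passed the filter on low counts: 5 of 6 cholangiocyte, 4 of 5 erythroid and 1 of 5 adipocyte, muscle and pancreas markers each were tested. Adipocyte markers summed to at most 6.98 CPM in any library, with the 1 tested called lower and Lep at 0 throughout, muscle markers to at most 4.09 and pancreas markers to at most 36.97, nearly all of it Cela1, with the 1 tested in each not called. The part of these shifts in the results below was not tested. In bulk tissue, fewer cells of a type and less RNA per cell cannot be told apart.

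Per length of transcript, Cdo1 stood far above the rest. In FPKM, the CPM per kilobase of all annotated exons, WT CTR averaged 1340 ± 152 for Cdo1 (SD, n = 3). Tst followed at 74.1 ± 5.26 FPKM, then Mpst at 57.5 ± 1.37, Ethe1 at 50.7 ± 5.79, Suox at 43.6 ± 2.12, Sqor at 40.8 ± 4.36, Csad at 32 ± 4.25, Slc6a6 at 7.90 ± 0.565 and Ado at 3.34 ± 0.285. In this order the libraries of Mpst and Ethe1 overlapped, as did those of Suox and Sqor, and all other neighbours were apart. With the length of the longest transcript in place of all exons, Sqor rose to 84.0 and Csad to 53.8 FPKM, so the places of the genes in the middle depend on which transcripts the liver uses. Cdo1 was first and Tst above Mpst in all 6 groups, and Ado was last in each, although its libraries overlapped those of Slc6a6 in KO noCys.

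**Figure D1:**
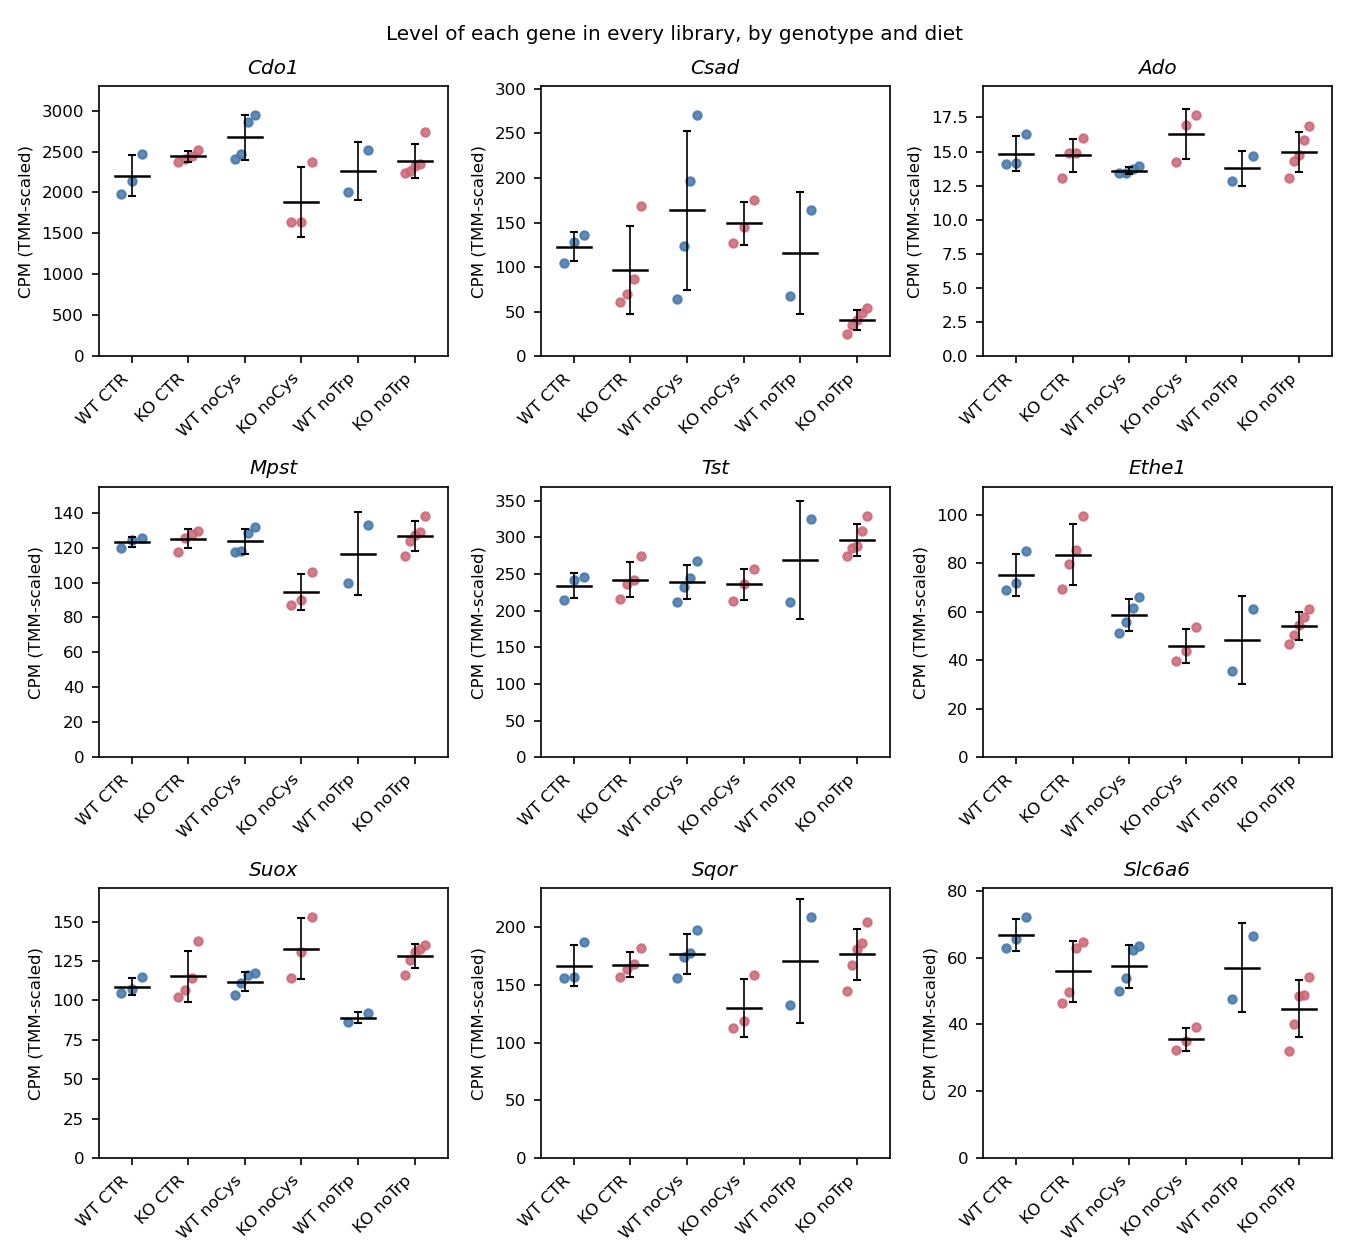
Level of each of the 9 genes in every library (vertical axes, CPM after TMM scaling, each from 0) by genotype and diet (WT blue, KO red), with the group mean as a bar and the SD as whiskers. KO noCys sits lowest for Cdo1, Mpst, Ethe1, Sqor and Slc6a6 in group means, and Csad is lowest in KO noTrp at 25.2 to 54.5 CPM.

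KO noCys against WT noCys asked what the knockout changes in animals that get no cysteine from the diet. Of the 9 genes, 4 were called, all lower in KO noCys: Slc6a6, Cdo1, Sqor and Mpst. Among all genes tested 28.2% were called in this comparison, 13.4% lower and 14.8% higher. The median log2 fold change was -0.36 over the 9 genes and -0.02 over all genes tested. The 4 called genes were the taurine transporter, the entry enzyme of the taurine route, the sulfide oxidase and the mercaptopyruvate enzyme, while Csad, Ado, Tst, Ethe1 and Suox were not called in edgeR. Limma-voom called 6 of the 9, Ado (higher) and Ethe1 (lower) in addition, and 5363 of all genes in place of 4055.

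The scaling of the libraries matters for this split. Without TMM, dividing by library totals only, the median log2 fold change over the 14370 genes was 0.20 in place of -0.02, and among the 9 genes 2 were called lower and 2 higher in place of 4 lower. Of all calls, 80% were then higher, against 52.5% with TMM. The split of all calls moved the same way in most other comparisons, so the shares of higher and lower genes printed below hold for TMM: the higher share went from 21.7% to 36.6% in KO CTR against WT CTR, from 52.6% to 73.7% in KO noCys against KO CTR, from 41.6% to 55.5% in KO noTrp against KO CTR, from 53.2% to 78% in WT noTrp against WT CTR and from 51.5% to 68.3% in KO noCys against KO noTrp. The higher share barely moved in KO noTrp against WT noTrp (35.7% to 36.7%) and in WT noCys against WT CTR (58.9% to 58.7%). In the interactions it went from 47.9% to 72.6% for the removal of cysteine and from 52.3% to 81.4% for genotype, with all-gene medians of 0.16 and 0.19. Slc6a6 (-0.48, adjusted p = 0.0248) and Cdo1 (-0.30, adjusted p = 0.0441) stayed lower, and Ado (0.49, adjusted p = 0.00786) and Suox (0.45, adjusted p = 0.00458) were called higher. Mpst (-0.18, adjusted p = 0.232) and Sqor (-0.24, adjusted p = 0.193) were then not called. Values given below without further remark use TMM.

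Cdo1 (ENSMUSG00000033022, chromosome 18, 46713193 to 46728395, minus strand) is the enzyme that commits cysteine to oxidation. Its level was 2376, 1642 and 1637 CPM in KO noCys replicates 1, 3 and 4 and 2860, 2474, 2947 and 2406 in the WT noCys libraries. All KO libraries were thus below all WT libraries, replicate 1 by little. Cdo1 fell by 0.50 on the log2 scale in KO (SE 0.14, adjusted p = 0.00912). On the control diet it was at 2374, 2413, 2450 and 2521 CPM in KO and 1985, 2476 and 2146 in WT, overlapping ranges with a log2 difference of 0.15 (SE 0.13, adjusted p = 0.774). KO noTrp lay between 2236 and 2739 CPM with a median of 2327, and WT noTrp at 2513 and 2010. Within KO, the change from the control diet to noCys was -0.37 and was not called in edgeR (adjusted p = 0.0571), but it was called in DESeq2 (-0.38, adjusted p = 0.0251), in limma-voom (-0.48, adjusted p = 0.00367) and without KO noCys replicate 1 (-0.57, adjusted p = 0.00436). Against KO noTrp the value was -0.34 (adjusted p = 0.0868), called in the same 3 alternatives (-0.54 to -0.34). Within WT it was 0.28, also not called (adjusted p = 0.364). The difference between these diet effects was itself tested and called at -0.65 (SE 0.19, adjusted p = 0.0426), the only one of the 9 genes called there in edgeR, beside 7.44% of all genes tested (3.56% higher and 3.88% lower). This call was lost in 10 of the 14 fits that left out 1 library, and in 3 of the 7 other alternatives: library totals alone (-0.51, adjusted p = 0.0530), no filter on low counts (-0.67, adjusted p = 0.0551) and the compared groups alone (-0.65, adjusted p = 0.0512). The call against WT noCys was lost without KO noCys replicate 3 (-0.41, adjusted p = 0.0695) or replicate 4 (-0.41, adjusted p = 0.0605).

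Csad (ENSMUSG00000023044, chromosome 15, 102176999 to 102204724, minus strand) decarboxylates the product of Cdo1 and was the most variable of the 9 genes. It was at 40.2, 54.5, 25.2, 35.6 and 48.7 CPM in KO noTrp replicates 1 to 5 and at 127, 175 and 145 in KO noCys. The KO CTR libraries were at 169, 70.2, 86.4 and 61.1 CPM. Every KO noTrp library was below every library of the other KO diets. Csad was 1.87 higher on the log2 scale in KO noCys than in KO noTrp (SE 0.37, adjusted p = 0.00260), a fold of 3.66 and the largest called change among the 9 genes. Markers of some other cells also set KO noCys below KO noTrp without overlap, with sums of 106.5 to 147 against 165 to 256 CPM for Kupffer cells and leukocytes (2 of 8 called lower), 104 to 109 against 127 to 176 for endothelium (3 of 6) and 17.2 to 20.3 against 27.1 to 51.2 for cholangiocytes (1 of 6). Stellate sums (227 to 242 against 189 to 236 CPM) and erythroid sums (130 to 164 against 104 to 198) overlapped, with none called. Of 8 hepatocyte markers 2 were called lower and 1 higher. The part of these markers in the differences between these groups, those of Mpst and Sqor included, was not tested. Against KO CTR, KO noTrp was lower by -1.25 (SE 0.35), which was not called in edgeR (adjusted p = 0.0691) and was called in DESeq2 (-1.25, adjusted p = 0.0373) and without the filter on low counts (-1.25, adjusted p = 0.0170). WT noTrp held 164 and 67.2 CPM, both above all 5 KO noTrp libraries, with a log2 fold change of -1.51 that was not called (adjusted p = 0.161). This value rested on which WT noTrp library was kept: it was -2.01 (adjusted p = 0.0347) without replicate 2 and -0.72 (adjusted p = 0.712) without replicate 1. It was also called without the filter on low counts (-1.51, adjusted p = 0.0252). The WT noCys libraries ran from 64.3 to 271 CPM and the WT CTR libraries from 104 to 136, so the spread within WT noCys covered all of WT CTR and of KO noCys. Exons of Csad and of the opposite-strand gene Zfp740 share 278 bases, which hold 2.85% of the 61-base words of Csad, and counts over that stretch cannot be assigned to 1 gene without strand information.

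Ado (ENSMUSG00000057134, chromosome 10, 67544511 to 67548955, minus strand), the cysteamine enzyme, has a single exon and was the least expressed of the 9, with 119 to 449 counts per library. It was at 14.2, 17.7 and 16.97 CPM in KO noCys and at 13.7, 13.4, 13.4 and 13.9 in WT noCys. The groups did not overlap, with KO above WT, but the difference of 0.26 (SE 0.11) was not called (adjusted p = 0.0778). In the other groups Ado lay between 12.9 and 16.9 CPM, and none of its comparisons passed the threshold in edgeR with TMM and all libraries. Against WT noCys it was called higher in limma-voom (0.30, adjusted p = 0.0166) and, as given above, with library totals alone.

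Slc6a6 (ENSMUSG00000030096, chromosome 6, 91684053 to 91759066, plus strand) is the sodium- and chloride-dependent taurine transporter. It was at 39.3, 32.2 and 35.1 CPM in KO noCys and at 63.3, 53.8, 62.2 and 50.1 in WT noCys. The KO CTR libraries held 64.6, 49.7, 62.8 and 46.5 CPM. All 3 KO noCys libraries were below all libraries of both other groups. Slc6a6 fell by 0.70 on the log2 scale against WT noCys (SE 0.16, adjusted p = 0.00346) and fell by 0.66 against KO CTR (SE 0.16, adjusted p = 0.00727). The first call was kept in all 7 fits without 1 library and in all 7 other alternatives. The second was lost without KO noCys replicate 3 (-0.59, adjusted p = 0.0544). KO noTrp lay between 32.2 and 54.1 CPM with a median of 48.4, and its range took in all 3 KO noCys libraries. Neither KO noTrp against KO CTR (-0.32, adjusted p = 0.242) nor KO noCys against KO noTrp (-0.34, adjusted p = 0.154) was called in edgeR, and limma-voom called the second (-0.42, adjusted p = 0.0319). WT CTR was at 65.6, 72.1 and 62.8 CPM, and WT noTrp at 66.4 and 47.5.

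Promoter sequences are shown for 3 genes of the sulfide arm that were called lower in KO noCys against WT noCys or KO CTR, so that the regions in front of their starts can be read side by side. No single comparison called all 3 in edgeR, while limma-voom called all 3 in KO noCys against WT noCys and against KO CTR. They are RefSeq's windows of 250 bases before to 50 after a transcript start, on GRCm38.p6 and on the coding strand, and 6 of the 9 genes had entries used here, 10 in all. Each was searched on both strands for the core of the amino acid response element, TGATGNAA, and of the antioxidant response element, TGACNNNGC. The first occurs in 3.97% and the second in 12.4% of 32851 promoters of that length. Of the 10 entries 1 held the first and 1 the second, and both are among those shown. Capitals mark the match, and no entry held both. Mpst is chr15:78406551-78406850 (plus strand), with TGACATGGC 12 bases before its start, and is the entry shown because it holds a match. It is not the Mpst entry nearest the annotated gene start, which, like the third, held neither core. Sqor is chr2:122771463-122771762 (plus strand), 6476 bases inside the GENCODE gene start, with TTTCATCA, the first motif read on the minus strand, 143 bases before its start. Ethe1 is chr7:24587293-24587592 (plus strand), with neither. These letters are a description and no evidence of binding.
Mpst: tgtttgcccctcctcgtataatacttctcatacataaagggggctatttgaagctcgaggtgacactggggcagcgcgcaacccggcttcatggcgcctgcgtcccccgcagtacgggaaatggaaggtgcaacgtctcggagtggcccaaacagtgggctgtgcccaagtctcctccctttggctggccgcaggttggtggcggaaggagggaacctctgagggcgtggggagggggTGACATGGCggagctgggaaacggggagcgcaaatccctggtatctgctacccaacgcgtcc
Sqor: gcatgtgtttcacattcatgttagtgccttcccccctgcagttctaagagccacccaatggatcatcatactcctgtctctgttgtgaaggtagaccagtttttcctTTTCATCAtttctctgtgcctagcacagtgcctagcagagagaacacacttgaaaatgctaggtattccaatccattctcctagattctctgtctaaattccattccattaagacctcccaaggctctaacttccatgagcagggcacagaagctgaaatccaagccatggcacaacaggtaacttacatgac
Ethe1: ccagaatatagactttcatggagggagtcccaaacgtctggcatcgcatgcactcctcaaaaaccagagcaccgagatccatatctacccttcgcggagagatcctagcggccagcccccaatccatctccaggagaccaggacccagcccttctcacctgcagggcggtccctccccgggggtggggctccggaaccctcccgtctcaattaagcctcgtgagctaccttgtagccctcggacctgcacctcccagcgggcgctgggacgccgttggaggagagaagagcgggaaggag

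Mpst (ENSMUSG00000071711, chromosome 15, 78406416 to 78414013, plus strand) takes sulfur from the transaminated form of cysteine and passes it on as persulfide. It was at 106, 87.2 and 90.2 CPM in KO noCys and at 117, 131.5, 118 and 128 in WT noCys. KO CTR held 128, 129.5, 118 and 125.5 CPM, WT CTR 124, 120 and 126, and KO noTrp 115 to 138 with a median of 127. No library of these 4 groups reached down to KO noCys, although WT noTrp replicate 1 did, at 99.9 CPM beside 133 in replicate 2. Mpst fell by 0.39 on the log2 scale against WT noCys (SE 0.10, adjusted p = 0.00634), it fell by 0.41 against KO CTR (SE 0.10, adjusted p = 0.00685) and it fell by 0.42 against KO noTrp (SE 0.10, adjusted p = 0.00626). Without KO noCys replicate 3 the last 2 were not called, at -0.35 (adjusted p = 0.0566) and -0.37 (adjusted p = 0.0655), and the first was at the threshold in its weakest such fit (adjusted p = 0.04998). With library totals alone only the call against KO noTrp was kept (-0.36, adjusted p = 0.0350), and the value against KO CTR was -0.29 (adjusted p = 0.0774). The effect of genotype without cysteine differed from that without tryptophan by -0.51 (SE 0.15, adjusted p = 0.0445), called in edgeR for Mpst alone among the 9, beside 6.35% of all genes tested (3.32% higher and 3.03% lower). That call was lost in 11 of 14 fits without 1 library, and without WT noTrp replicate 1 the value was -0.31 (adjusted p = 0.256). It was also lost in 4 of the 7 other alternatives: library totals alone (-0.32, adjusted p = 0.265), no filter on low counts (-0.50, adjusted p = 0.127), the compared groups alone (-0.51, adjusted p = 0.0973) and the replicate block (-0.51, adjusted p = 0.0914). The cysteine-removal interaction of Mpst (-0.41, adjusted p = 0.0797) was called in DESeq2, in limma-voom, with the compared groups alone and without KO noCys replicate 1 (adjusted p from 0.0119 to 0.0481).

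Sqor (ENSMUSG00000005803, chromosome 2, 122765237 to 122809569, plus strand) is the mitochondrial membrane enzyme that takes the electrons of sulfide to the respiratory chain. It was at 159, 112.5 and 119 CPM in KO noCys and at 174.5, 156, 178 and 198 in WT noCys. KO noCys replicate 1 lay inside the WT range and the other 2 lay well below it. Sqor fell by 0.44 against WT noCys (SE 0.15, adjusted p = 0.0323) and fell by 0.44 against KO noTrp (SE 0.14, adjusted p = 0.0452), whose libraries ran from 144.5 to 204 CPM. Against KO CTR, at 182, 164, 157 and 168 CPM, the value of -0.37 was not called in edgeR (adjusted p = 0.0885), and it was called in limma-voom (-0.43, adjusted p = 0.0143) and without KO noCys replicate 1 (-0.53, adjusted p = 0.0227). WT CTR held 157, 187 and 156 CPM, and the WT noTrp libraries lay far apart at 209 and 133. The call against WT noCys was lost in 4 of 7 fits without 1 library, with -0.35 (adjusted p = 0.171) without KO noCys replicate 3, -0.38 (adjusted p = 0.123) without KO noCys replicate 4, -0.44 (adjusted p = 0.0549) without WT noCys replicate 3 and -0.39 (adjusted p = 0.0815) without WT noCys replicate 4. The one against KO noTrp was lost in 6 of 8, at adjusted p up to 0.245.

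Ethe1 (ENSMUSG00000064254, chromosome 7, 24587543 to 24608925, plus strand) oxidises the persulfide that Sqor makes. It was called lower on both depleted diets in KO. The KO CTR libraries held 99.6, 85.7, 79.7 and 69.4 CPM, against 53.7, 39.8 and 44.0 in the KO noCys libraries. KO noTrp held 46.9, 57.9, 50.3, 54.5 and 61.04 CPM. All libraries of the depleted diets were below all those of the control diet. Ethe1 fell by 0.87 on the log2 scale in KO noCys (SE 0.16, adjusted p = 0.000883) and fell by 0.63 in KO noTrp (SE 0.14, adjusted p = 0.0225) against the same 4 KO CTR libraries. These comparisons share their controls. The first call was kept in all 7 fits without 1 library. The second was lost in 3 of 9, at -0.54 (adjusted p = 0.106) without KO CTR replicate 1, -0.58 (adjusted p = 0.0517) without KO noTrp replicate 1 and -0.60 (adjusted p = 0.0642) without KO noTrp replicate 3. KO noCys and KO noTrp did not differ by a called amount (-0.24, adjusted p = 0.316). Against WT noCys, which it overlapped, KO noCys was at -0.36 and not called in edgeR (SE 0.16, adjusted p = 0.0982), but it was called in limma-voom (-0.42, adjusted p = 0.0172) and with the compared groups alone (-0.37, adjusted p = 0.0471). In WT the same direction was seen, without a call in edgeR. WT CTR was at 68.8, 84.96 and 71.8 CPM, WT noCys at 61.8, 51.3, 55.8 and 66.1 and WT noTrp at 61.2 and 35.6. Both depleted groups lay below WT CTR without overlap, at -0.36 for noCys (adjusted p = 0.323) and -0.63 for noTrp (adjusted p = 0.0803). The latter was -1.08 (adjusted p = 0.0342) without WT noTrp replicate 1 and -0.29 (adjusted p = 0.407) without replicate 2. Ethe1 shares 99 exonic bases with Zfp575 on the opposite strand, which hold 2.74% of the 61-base words of Ethe1.

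Tst (ENSMUSG00000044986, chromosome 15, 78399556 to 78405907, minus strand) encodes rhodanese, which passes persulfide sulfur on to thiosulfate or thiocyanate. It was at 214, 236 and 257 CPM in KO noCys and at 245, 267.5, 212 and 232 in WT noCys. These ranges overlapped almost wholly, with a log2 difference of -0.02 (SE 0.13, adjusted p = 0.923). In KO noTrp it was at 274, 309, 329 and 286 CPM in replicates 1 to 4 and 288 in replicate 5, above every KO noCys library. That difference of -0.33 (SE 0.12) was not called in edgeR (adjusted p = 0.0736) and was called in DESeq2 (-0.34, adjusted p = 0.0407) and limma-voom (-0.29, adjusted p = 0.0386). KO noTrp against KO CTR (0.29, adjusted p = 0.179) was called in limma-voom alone (0.34, adjusted p = 0.0458). WT noTrp was at 212.5 and 326 CPM, KO CTR between 216.5 and 274 and WT CTR between 215 and 246.

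Suox (ENSMUSG00000049858, chromosome 10, 128669894 to 128674073, minus strand), the molybdenum-cofactor enzyme that ends the route at sulfate, had higher group means in KO than in WT on all 3 diets. It was at 153, 114 and 131 CPM in KO noCys and at 111, 117, 104 and 116 in WT noCys, overlapping ranges with a log2 difference of 0.24 (SE 0.11, adjusted p = 0.0946) that was called with library totals alone, as given above, and without KO noCys replicate 3 (0.34, adjusted p = 0.0443). KO noTrp was at 116 to 135 CPM with a median of 131, and WT noTrp at 91.7 and 86.6. These groups did not overlap, and the difference of 0.52 (SE 0.12) was not called in edgeR (adjusted p = 0.0758) but was in DESeq2 (0.53, adjusted p = 0.00390). On the control diet KO was at 107, 138, 114 and 102 CPM and WT at 107, 114.6 and 104.

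Within KO noCys, replicate 1, which also had the lowest total count of all 21 libraries, was the highest of the 3 libraries for 6 of the 9 genes and the lowest for the other 3. Without it, the log2 fold changes against WT noCys were -0.70 for Cdo1 (adjusted p = 0.000631), -0.48 for Mpst (adjusted p = 0.0028), -0.61 for Sqor (adjusted p = 0.00798) and -0.77 for Slc6a6 (adjusted p = 0.00522), and Ado was called higher at 0.35 (adjusted p = 0.0321).

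**Figure D2:**
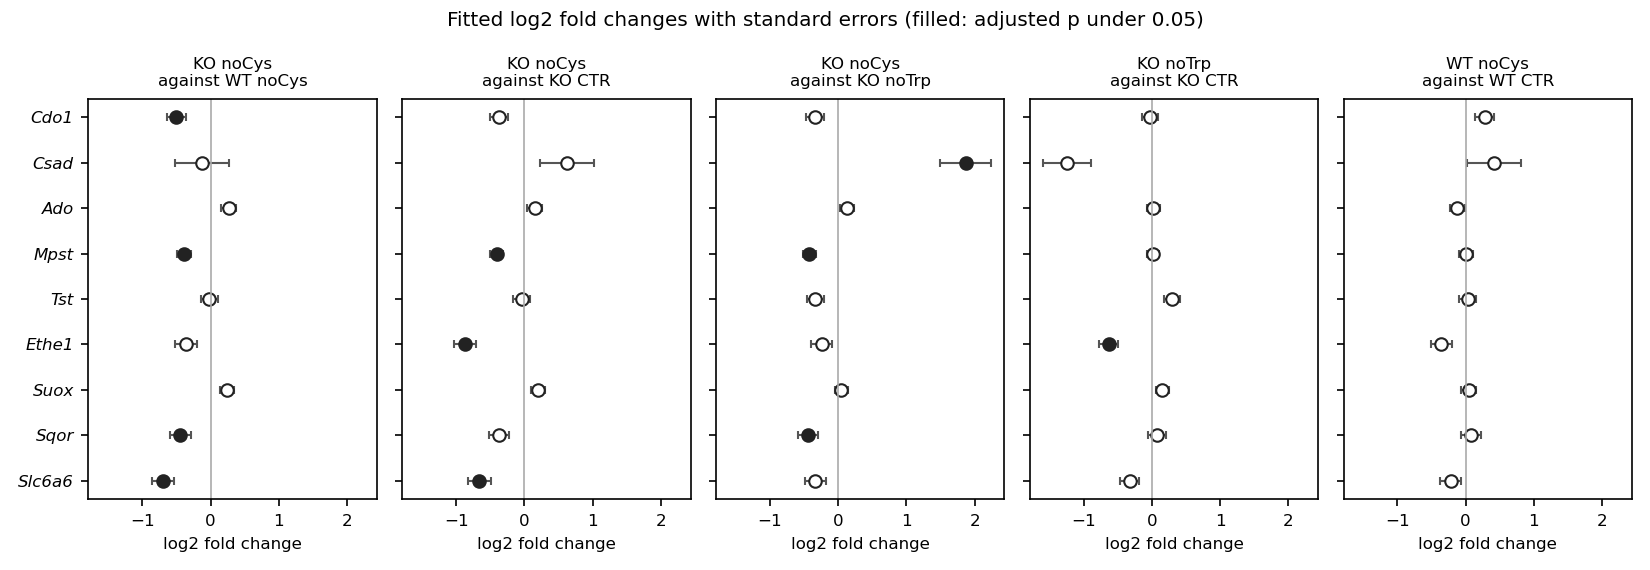
Log2 fold change of each gene (horizontal axes) in 5 comparisons, from edgeR over all 21 libraries, with bars of 1 standard error and filled points where the adjusted p was under 0.05. Slc6a6, Cdo1, Sqor and Mpst are filled on the lower side in KO noCys against WT noCys, Csad stands out at 1.87 in KO noCys against KO noTrp, and no point is filled in WT noCys against WT CTR.

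In the remaining counts, KO noCys against KO CTR called 3 of the 9 genes, all lower (Ethe1, Slc6a6 and Mpst), beside 20.2% of all genes tested (10.6% higher and 9.59% lower). The median over the 9 was -0.37 and over all genes 0.00. Cell markers moved in this comparison too: 4 of 8 hepatocyte markers were called lower and 1 higher (sums of 66280 to 82990 against 81980 to 93440 CPM), with 2 of 6 stellate (227 to 242 against 197 to 388), 2 of 5 erythroid (130 to 164 against 158.5 to 321), 1 of 6 endothelial and 1 of 6 cholangiocyte markers lower. Of 6 pericentral markers 2 were higher and 1 lower, of 6 periportal ones 1 each way, and of 8 Kupffer cell and leukocyte markers 0 were called. In KO noTrp against KO CTR, 1 of 8 hepatocyte markers was lower and 1 of 8 Kupffer cell and leukocyte markers higher. The part of these shifts in the calls of Ethe1, Slc6a6 and Mpst was not tested. Scaled by totals only, 2 were lower (Ethe1 and Slc6a6) and 1 higher (Suox, 0.32, adjusted p = 0.04975, also called with TMM without KO CTR replicate 2), beside an all-gene median of 0.13. KO noCys against KO noTrp called 3, Csad higher and Mpst and Sqor lower, beside 13.9% (7.17% higher and 6.75% lower), and the call of Sqor was lost in 3 of the 7 other alternatives: library totals alone (-0.38, adjusted p = 0.0651), no filter on low counts (-0.45, adjusted p = 0.0517) and the compared groups alone (-0.45, adjusted p = 0.0642). KO noTrp against KO CTR called Ethe1 alone, lower, beside 1.87% (0.779% higher and 1.09% lower). The other comparisons called 0 of the 9 in edgeR. In KO CTR against WT CTR, where 0.32% of all genes were called (0.0696% higher and 0.251% lower), 0 of the 9 had an unadjusted p under 0.05, DESeq2 and limma-voom each called 0, and fold changes ran from -0.34 to 0.15. In WT noCys against WT CTR (0.661% of all genes, 0.39% higher and 0.271% lower) 1 of the 9 had an unadjusted p under 0.05 and both other tools called 0. In KO noTrp against WT noTrp (0.195%, 0.0696% higher and 0.125% lower) 2 had such a p, DESeq2 called 1 (Suox) and limma-voom 0. In WT noTrp against WT CTR (3.19%, 1.7% higher and 1.5% lower) 2 had such a p, DESeq2 called 1 (Ethe1, -0.64, adjusted p = 0.0308) and limma-voom 0. Groups of 2 to 5 libraries are often apart for any gene, so the counts of genes without overlap stand beside the share of all genes tested. They were 4 of the 9 in KO noCys against WT noCys (37.6% of all genes), 3 in KO noCys against KO CTR (28.6%), 3 in KO noCys against KO noTrp (19.6%) and 2 in KO noTrp against KO CTR (6.33%). They were 2 in KO noTrp against WT noTrp (9.94%), 2 in WT noCys against WT CTR (16.4%), 2 in WT noTrp against WT CTR (30.6%) and 0 in KO CTR against WT CTR (10.9%).

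**Figure D3:**
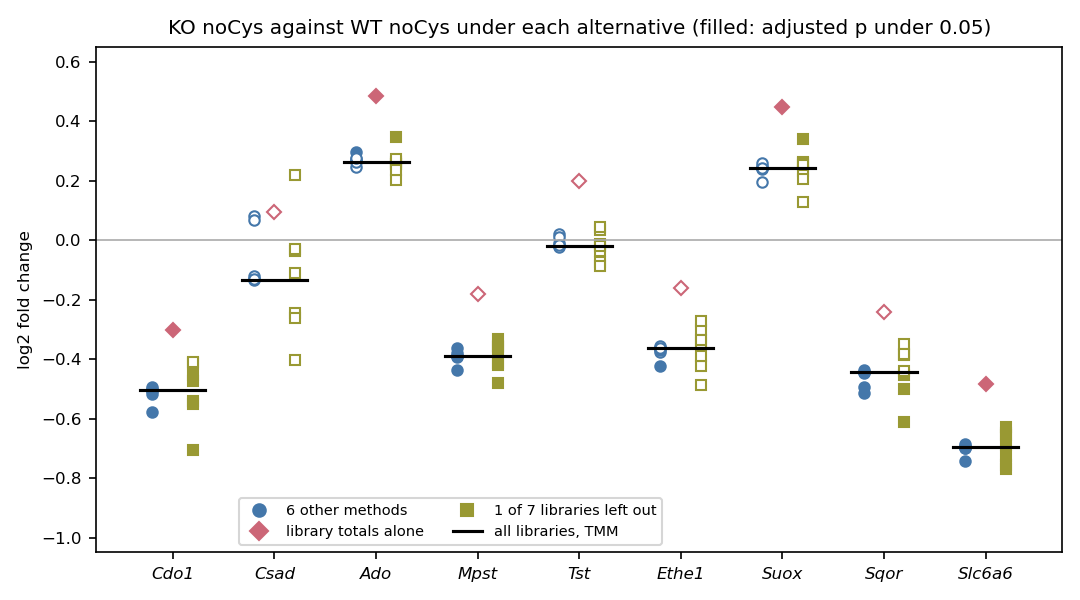
Log2 fold change of each gene in KO noCys against WT noCys (vertical axis) with all libraries and TMM scaling (black line), under 6 other methods (circles), with library totals alone (diamonds) and with 1 of the 7 libraries left out (squares), filled where the adjusted p was under 0.05. Slc6a6 is filled throughout, and the diamonds of all 9 genes lie above their lines, as the median of all genes does.

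Mpst and Tst are neighbours that point away from each other on chromosome 15, with 509 bases between their annotated starts. The ratio of their counts within a library does not depend on library scaling, and it was examined after their values had been seen. It was 0.497, 0.369 and 0.351 Mpst counts per Tst count in KO noCys replicates 1, 3 and 4, against 0.4795 to 0.556 in WT noCys. KO CTR lay at 0.472 to 0.543, WT CTR at 0.506 to 0.5575, KO noTrp at 0.4185 to 0.442 and WT noTrp at 0.409 and 0.470. The 5 KO noTrp libraries were all below the 4 KO CTR libraries, with a log2 difference of -0.28 (two-sided exact permutation test, p = 0.00794, the smallest this design allows, and 0.0635 after Benjamini-Hochberg adjustment over 8 comparisons). KO noCys and WT noCys overlapped in replicate 1, with a log2 difference of -0.37 (exact permutation p = 0.0857, adjusted 0.2). None of the 8 comparisons passed after adjustment.

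**Figure D4:**
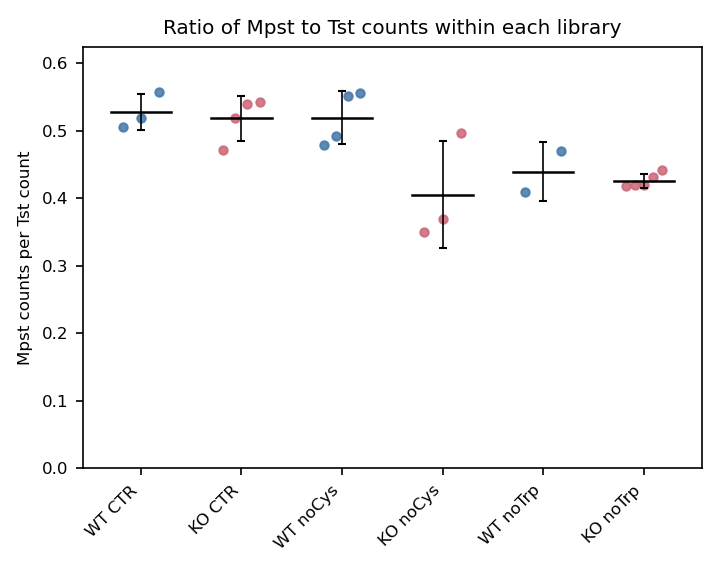
Mpst counts per Tst count in each library (vertical axis, from 0) by group, WT in blue and KO in red, with the group mean as a bar and the SD as whiskers. Both noTrp groups lie below both CTR groups, and KO noCys spans 0.351 to 0.497.

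Around the 9 genes, 29 others of the same pathways were followed, 28 of which passed the filter on low counts. Gadl1, a decarboxylase related to Csad, was at 0 in all libraries. In KO noCys against WT noCys 11 of the 28 were called, 6 higher and 5 lower, beside the 28.2% over all genes, and their median log2 fold change was 0.13. Among 6 other genes of the taurine arm, Slc27a5 and Baat, which activate bile acids and join them to taurine or glycine, were lower and Pter was higher. Slc27a5 was at 549, 352 and 459 CPM in KO noCys against 969.9, 989, 876 and 949.6 in WT noCys, with no overlap, and fell by 1.06 on the log2 scale (SE 0.13, adjusted p = 1.25e-05). Baat fell by 0.47 (adjusted p = 0.0279), a call lost with library totals alone (-0.26, adjusted p = 0.215), and Pter was higher by 0.58 (adjusted p = 0.0124). Of 4 genes of cysteine transamination and β-lyase activity, which supply mercaptopyruvate or cleave cysteine conjugates, Kyat1 (0.40, adjusted p = 0.0417) and Got2 (0.36, adjusted p = 0.00419) were higher and 0 were lower. The call of Kyat1 was lost in 6 of 7 fits without 1 library, at adjusted p up to 0.103, and with the replicate block (0.37, adjusted p = 0.0894).

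Of 8 other genes of sulfide and persulfide metabolism, 2 were higher and 2 lower. Cth, the deleted gene and itself a source of sulfide, fell by 5.12 (adjusted p = 1.51e-08). Tstd3, a rhodanese-domain gene that overlaps Ccnc and Usp45, fell by 0.98 (adjusted p = 0.00169), and Tstd1, which overlaps Usf1, was higher by 0.73 (adjusted p = 0.0153). The other higher gene was Cars2 (0.65, adjusted p = 0.0227), a mitochondrial cysteinyl-tRNA synthetase that also makes persulfides, named after its values were seen. Among 8 genes of the sulfite oxidase cofactor and of sulfate use, Papss2, which makes the activated sulfate donor, fell by 0.89 (adjusted p = 0.00116), and Mocs3 was higher by 0.62 (adjusted p = 0.0101). The 2 pantetheinase genes, which release cysteamine, were not called (Vnn3 0.12, Vnn1 0.76).

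**Figure D5:**
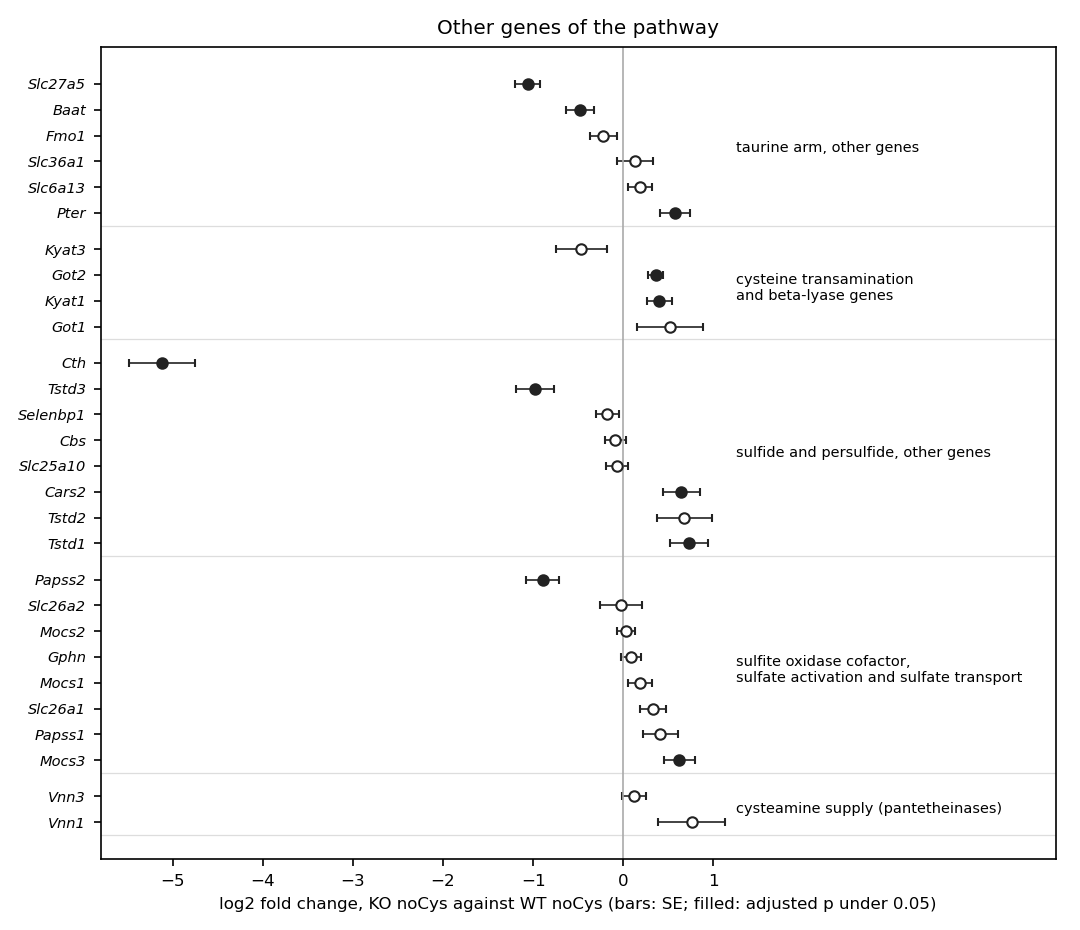
Log2 fold change in KO noCys against WT noCys (horizontal axis) of 28 other genes of cysteine, taurine, sulfide and sulfate metabolism, grouped by role, with bars of 1 standard error and filled points where the adjusted p was under 0.05. Cth lies at -5.12, Slc27a5 at -1.06 and Tstd3 at -0.98, and filled points occur on both sides of 0.

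In the other comparisons the counts among the 28 are given beside the share of all genes called. In KO noCys against KO CTR it was 8 (5 higher and 3 lower, beside 20.2% of all genes), led by Kyat1, which was at 242, 229.7 and 243 CPM against 117, 98.5, 108 and 146 and rose by 1.02 (SE 0.14, adjusted p = 6.68e-05), and by Tstd3, which fell by 0.82 (adjusted p = 0.00854). In KO noCys against KO noTrp it was 5 (4 higher and 1 lower, beside 13.9%), with Kyat1 higher by 0.88 (adjusted p = 0.000342) and Slc27a5 lower, having fallen by 0.83 (adjusted p = 0.000336). In WT noTrp against WT CTR it was Got1 alone (beside 3.19%), higher by 1.73 (adjusted p = 0.0356), at 2088 and 574 CPM against 281, 498 and 426. Without WT noTrp replicate 1 the value was 0.52 (adjusted p = 0.643). In KO against WT on CTR and on noTrp it was Cth alone (beside 0.32% and 0.195%), which fell by 4.11 (adjusted p = 4.18e-07) and fell by 4.56 (adjusted p = 4.09e-08). In WT noCys against WT CTR (0.661%) and in KO noTrp against KO CTR (1.87%) edgeR called 0.

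For each gene, the protein-coding gene most like it across the 21 libraries was taken by Pearson's r of log2 CPM over 12060 genes. These r describe likeness only, and the libraries share the groups and their scaling. The nearest genes were F9 for Cdo1 (0.93), Gabbr2 for Csad (0.85), Zfp324 for Ado (0.82), Msrb1 for Mpst (0.96), Cxcl13 for Tst (0.80), Fam129b for Ethe1 (0.88), Cmbl for Suox (0.90) and Akr1d1 for Sqor (0.87). For Slc6a6, which had the largest change in KO noCys against WT noCys, they were Mrpl9 (0.90), Mob1b (0.90) and Stx17 (0.89). Among the 9 themselves, r ran from -0.60 for Csad and Tst to 0.73 for Cdo1 and Sqor.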

How the data were processed

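Liver RNA of 21 animals was extracted with TRIzol, poly(A)-selected and sequenced as paired ends of 61 cycles. The authors aligned reads with HISAT2 2.1.0 and made gene counts with HTSeq 0.11.0 on GRCm38, per the labels and the study's methods, and the deposited values are raw counts per Ensembl gene. The annotation release and the strand setting are not given in the sources used here. The table's 1 column that matched no sample was not used. Symbols and positions came from GENCODE M21, which held 45229 of the 46078 identifiers.

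From these counts, genes were kept by edgeR's filterByExpr (minimum count 10, minimum total 15), which left 14370 of 26504 genes with any count. Libraries were scaled by TMM (factors 0.883 to 1.14). All 6 groups entered 1 quasi-likelihood fit in edgeR 4.0.16 (R 4.3.3) with no covariates, with Benjamini-Hochberg adjustment and a threshold of 0.05. The prior count for log2 CPM was 2. The alternatives were DESeq2 1.42.0, limma-voom with quality weights (limma 3.58.1), RLE size factors, library totals alone, no filter on low counts, the replicate number as a block, the compared groups alone and leaving out each library. The main test was checked on simulated counts.

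The titles number biological replicates, and p-values measure the spread between these samples. The 9 genes and the lists of other genes were chosen with earlier results of these data known. Named beside the 9 genes were Cth, up to 3 called genes per list with the largest change in KO noCys against WT noCys, up to 2 over all lists in each other comparison, and the gene most correlated with each of the 9. Total counts per library ran from 8889951 to 27230852, and Ado had the fewest counts of the 9 genes (119 to 449).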

Additional observations from a re-analysis of the deposited data

Results flagged for a closer look

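The Cdo1 level of 2739 CPM in KO noTrp replicate 1 stood apart from the other 4 libraries of its group, which lay between 2236 and 2351 CPM. It was the 1 group in which a library stood apart among 27 tested, and chance alone gives about 1 in 20.

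The response of Cdo1 to the removal of cysteine differed between KO and WT by -0.65 on the log2 scale (edgeR, adjusted p = 0.0426). The genotype effect on Mpst without cysteine differed from that without tryptophan by -0.51 (edgeR, adjusted p = 0.0445). Among the other pathway genes, the response to the removal of cysteine differed between KO and WT by -0.71 for Fmo1, a flavin monooxygenase that oxidises hypotaurine (adjusted p = 0.0464), and by -1.08 for Slc27a5 (adjusted p = 0.00198). For Slc27a5 the genotype effect without cysteine also differed from that without tryptophan, by -0.94 (adjusted p = 0.00694). These differences were tested as interaction terms over all 14370 genes. The call of Cdo1 was lost in 3 of 7 alternatives with all libraries, that of Mpst in 4 of 7, and that of Fmo1 with library totals alone (-0.57, adjusted p = 0.0767) and in 11 of 14 fits without 1 library.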

How the results depend on the processing

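Over 37 values of the 9 genes that had an unadjusted p under 0.05 or were called under any setting, 259 values from the 7 alternatives with all libraries kept the direction throughout. Of these 221 stayed on the same side of the threshold, 13 lost a call and 25 gained one. Over 332 values with 1 library left out, 281 stayed, 39 lost and 12 gained a call, and 0 reversed. For the other 53 values, 64 of 804 alternative values had the opposite sign, at most 0.43 in size.

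Counts of called genes among the 9 moved as follows, and the cause was not tested. DESeq2 called 1 in KO noTrp against WT noTrp and 1 in WT noTrp against WT CTR (0 in edgeR for both), 2 in KO noTrp against KO CTR (1), 5 in KO noCys against KO noTrp (3) and 2 in each interaction (1). Limma-voom called 5 in KO noCys against KO CTR (3), 2 in KO noTrp against KO CTR, 6 in KO noCys against KO noTrp and 3 in the cysteine-removal interaction. Its calls over all genes rose too, from 2906 to 4195, 269 to 610, 2000 to 3204 and 1069 to 2179. Without the filter on low counts it was 1 in KO noTrp against WT noTrp, 2 in KO noTrp against KO CTR and 0 in both interactions. Library totals alone gave 0 in both interactions, and the compared groups alone gave 0 in the genotype interaction.

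With the replicate block the genotype interaction called 0 (Mpst -0.51, adjusted p = 0.0914), and no other count of called genes among the 9 left 1.5 times its value. Replicate numbers did not pair the samples: of 41 same-numbered pairs 9 correlated above 0.1 (r -0.36 to 0.35, median -0.03, against 0.01 for other pairs).

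Leaving out 1 library gave 2 to 5 called genes in KO noCys against WT noCys, 0 to 1 in KO noTrp against WT noTrp, 1 to 5 in KO noCys against KO CTR, 0 to 1 in KO noTrp against KO CTR and in WT noTrp against WT CTR, 1 to 4 in KO noCys against KO noTrp and 0 to 2 in each interaction. Without a WT noTrp library, the lone one left is assumed to vary like the other groups. With the longest transcript's length, WT CTR levels were 53.8 FPKM for Csad, 70.3 for Mpst, 10.8 for Slc6a6, 84.0 for Sqor and 89.0 for Tst.

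Counts over all genes also moved with the method. KO CTR against WT CTR called 46 genes in edgeR, 125 in DESeq2 and 6 with the compared groups alone, KO noTrp against WT noTrp 28, 123 and 4, WT noCys against WT CTR 95, 307 and 396, WT noTrp against WT CTR 459, 796 and 3, and KO noTrp against KO CTR 269, 580 and 136. With the replicate block the 5 counts were 10, 21, 14, 191 and 218. KO noCys against KO noTrp called 2000 genes and 1302 with the replicate block, and the genotype interaction 912 and 553 in limma-voom. WT noCys against WT CTR called 533, KO CTR against WT CTR 86, KO noTrp against WT noTrp 6 and WT noTrp against WT CTR 32 in limma-voom, and without the filter the first 3 called 269, 154 and 101. Beside those named in the report, single settings called the interactions of Sqor (cysteine removal, limma-voom, -0.52), Cdo1 (genotype, DESeq2, -0.58, and without KO noCys replicate 1, -0.78), and Ethe1 and Sqor (genotype, without WT noTrp replicate 1, -0.96 and -0.85).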
